A study of Mus musculus with 6 samples.

Results

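The genes described here carry the adrenergic and muscarinic control of the heart. They were chosen by name, with earlier results of these data known. They comprised the adrenergic receptors Adrb1, Adrb3, Adra1a and Adra1b, the muscarinic receptor Chrm2 and the stimulatory G protein gene Gnas. The adenylyl cyclases Adcy5 and Adcy6 and the receptor kinase Adrbk1 were also included. These 9 genes, of 18138 gene symbols on the array, were represented by 17 of 25697 probes. Of the 17 probes, 10 probes of 7 genes were detected on enough arrays to be tested. The other 7 probes, which included the only probes of Adrb3 and Adcy5, were at or near background.

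Hearts of male FVB mice (FVB/N in the methods) at postnatal day 6 were compared between 3 hSRY-ON and 3 hSRY-OFF animals, with 1 BeadChip array for each heart. In hSRY-ON mice a single-copy transgene on chromosome 11 expressed FLAG-tagged human SRY together with EGFP from the ubiquitous CAG promoter. It had been switched on in the fertilized egg by Cre recombinase deposited in the oocyte by a Ddx4-Cre mother, and the hSRY-ON pups used did not carry Ddx4-Cre themselves. Without recombination the same transgene expresses DsRed2 and leaves SRY silent, which is how the methods define hSRY-OFF, whereas the results section of the study describes the controls as littermates with Ddx4-Cre alone or with no transgene. The genotype of the hSRY-OFF hearts is therefore uncertain, and the transgene itself was not measured by these probes. The labels do not say whether the hearts of a group shared a litter, and the p-values measure the spread between these hearts. All 8 cardiomyocyte marker genes with a probe on the array, among them Myh6, Myl2 and Nppa, were detected on every array.

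Noradrenaline from sympathetic nerves and adrenaline from the adrenal gland act on beta-adrenergic receptors of cardiomyocytes. These receptors couple through the stimulatory G protein to adenylyl cyclase, which makes cAMP, and protein kinase A then phosphorylates calcium channels, the ryanodine receptor, phospholamban and sarcomere proteins, so that the heart beats faster and harder and relaxes more quickly. Alpha-1 receptors act through Gq, phospholipase C and protein kinase C. Acetylcholine from the vagus nerve acts on the M2 receptor, which lowers cAMP through Gi and opens potassium channels through the G protein beta and gamma subunits, and so slows the heart.

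Sequences upstream of the start site are shown for the 3 receptor genes with a differentially expressed probe, and for 1 start of Gnas, the G protein gene that follows the beta receptors. They were taken from RefSeq on GRCm38.p6, whose table held windows for 5 of the 9 genes, and each runs 5′ to 3′ on the strand of the gene over the 250 bases before the start. Capitals mark TGACG, the core of the cAMP response element, and AACAAT, a sequence bound by the HMG box of SRY and SOX proteins, on either strand, so that a match on the opposite strand reads CGTCA or ATTGTT. The window of Adrb1 was chr19:56721867-56722116 on the plus strand, those of the 2 starts of Adra1b were chr11:43901238-43901487 and chr11:43836490-43836739 on the minus strand, that of Chrm2 was chr6:36387834-36388083 on the plus strand, and that of Gnas was chr2:174327499-174327748 on the plus strand.
Adrb1: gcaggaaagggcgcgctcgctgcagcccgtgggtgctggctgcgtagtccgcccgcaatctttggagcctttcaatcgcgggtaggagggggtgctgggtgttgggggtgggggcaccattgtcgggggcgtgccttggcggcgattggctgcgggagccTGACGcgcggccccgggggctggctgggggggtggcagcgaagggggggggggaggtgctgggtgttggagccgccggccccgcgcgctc
Adra1b start 1: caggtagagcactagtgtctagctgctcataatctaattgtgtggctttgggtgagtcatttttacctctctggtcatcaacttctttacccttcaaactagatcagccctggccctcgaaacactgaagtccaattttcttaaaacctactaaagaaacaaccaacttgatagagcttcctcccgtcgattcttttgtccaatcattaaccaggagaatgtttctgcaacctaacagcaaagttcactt
Adra1b start 2: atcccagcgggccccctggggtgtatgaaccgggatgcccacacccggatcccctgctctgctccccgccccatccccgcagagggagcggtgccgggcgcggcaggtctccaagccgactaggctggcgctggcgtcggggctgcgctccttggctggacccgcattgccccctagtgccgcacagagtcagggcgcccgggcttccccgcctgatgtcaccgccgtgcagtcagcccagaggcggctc
Chrm2: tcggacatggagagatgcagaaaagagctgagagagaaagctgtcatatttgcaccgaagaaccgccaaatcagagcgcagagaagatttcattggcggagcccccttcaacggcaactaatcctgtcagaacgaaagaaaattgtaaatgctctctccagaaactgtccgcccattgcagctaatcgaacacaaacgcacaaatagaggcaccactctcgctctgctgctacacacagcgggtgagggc
Gnas: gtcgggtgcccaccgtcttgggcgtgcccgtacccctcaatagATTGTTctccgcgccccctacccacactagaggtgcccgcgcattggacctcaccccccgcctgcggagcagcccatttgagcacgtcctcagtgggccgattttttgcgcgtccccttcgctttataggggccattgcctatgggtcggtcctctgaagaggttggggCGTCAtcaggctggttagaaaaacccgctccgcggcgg

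The Adrb1 window held TGACG 90 bases before the start and no AACAAT. Neither window of Adra1b and not that of Chrm2 held any of the motifs, and the full cAMP response element TGACGTCA was found in none of the windows of the 5 genes. The Gnas window shown held AACAAT on the minus strand 207 bases before the start and TGACG on the minus strand 38 bases before it. It is the first of 4 Gnas windows in the table, and not all of the others held the same matches. A window that overlaps it did, another held TGACG alone and another held neither. Which of the 4 starts gives the transcript of the stimulatory G protein was not determined. Among 32851 RefSeq windows of this length, 9.42% held AACAAT, 17.8% held TGACG and 1.55% held TGACGTCA. The upstream windows differed in base composition, with a GC content of 74% for Adrb1, 41.6% and 72.8% for the 2 starts of Adra1b, and 50% for Chrm2. A match is a description of the letters and does not show that a protein binds there.

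Of the 10 tested member probes, 3 were differentially expressed at an adjusted p under 0.05 (limma, Benjamini-Hochberg over all tested probes), 1 of them higher and 2 lower in hSRY-ON hearts. Over all 12970 tested probes the share was 27.5%, and for genes represented by their brightest probe it was 28.8%, so that 3 of 10 member probes lay near the share of the array as a whole. All 3 differentially expressed probes belonged to receptors. Adra1b and Adrb1 were lower and Chrm2 was higher, whereas Gnas, Adcy6 and Adrbk1 did not pass the test. The hSRY-ON and hSRY-OFF hearts did not overlap for 4 of the 10 probes, against 45.2% of all tested probes. Negative values were found in 8 of the 10 probes, and the median log2 fold change of the 7 tested genes was -0.22, against 0.0026 over all 9660 tested genes. In whole hearts, fewer cells of a type and less RNA per cell cannot be told apart.

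**Figure D1:**
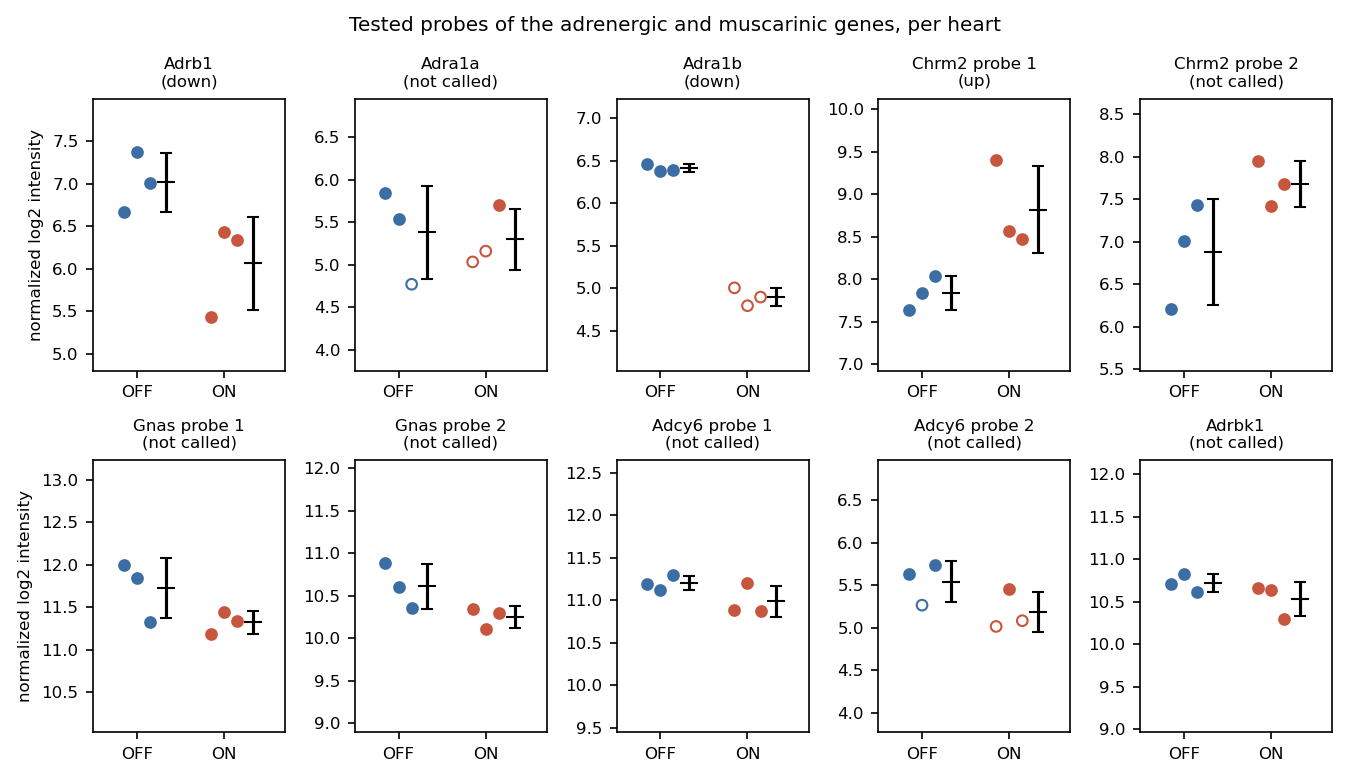
Normalized log2 intensity (vertical axis, a range of its own in each panel) of the 10 tested member probes in 3 hSRY-OFF (blue) and 3 hSRY-ON (red) hearts. Each circle is 1 heart, filled where the probe was detected and open where it was not, and bars give the mean and SD. The 3 hSRY-ON hearts lay below the 3 hSRY-OFF hearts for Adrb1 and Adra1b and above them for Chrm2 probe 1.

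Adra1b, the alpha-1B receptor, had the smallest adjusted p among the members. Its normalized log2 intensity was 6.46, 6.37 and 6.39 in hSRY-OFF hearts and 5.0, 4.79 and 4.89 in hSRY-ON hearts. All 3 hSRY-OFF hearts were above background and none of the hSRY-ON hearts was. The hSRY-ON level is therefore only a bound, and Adra1b was at least 2.12-fold lower in hSRY-ON hearts, by the background-corrected intensities. The fitted log2 fold change was -1.51 (SE 0.12, adjusted p = 0.000224, limma). Adra1b fell under each of the 17 alternative settings in which the probe could be tested, with adjusted p-values between 2.99e-06 and 0.00346. The smallest came without normalization between arrays, where every member probe had the same SE of 0.30, so it does not measure the spread of this probe. Without background correction the log2 fold change was -0.46, smaller than the bound, which holds for background-corrected intensities only. Every hSRY-ON heart lay below every hSRY-OFF heart in 21.6% of all tested probes.

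Adra1a, the other alpha-1 receptor of the group, had 1 probe near the limit of detection and 1 probe detected on no array. The tested probe read 5.84, 5.53 and 4.77 in hSRY-OFF hearts and 5.03, 5.16 and 5.70 in hSRY-ON hearts, and was detected in 2 and 1 of them. The groups overlapped, and the difference on the log2 scale was -0.08 with a 95% interval from -0.77 to 0.60 (adjusted p = 0.863, limma). Its direction turned to 0.14 without hSRY-OFF replicate 1 and to 0.05 without hSRY-ON replicate 1. The difference between the changes of Adra1a and Adra1b was not tested.

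Adrb1, the main beta receptor of cardiomyocytes, was detected in all 6 hearts, but in hSRY-ON replicate 1 it lay close to background. Its detection p-value there was 0.0439, and the lowest detected probe of that array read 5.39. The log2 intensity of the Adrb1 probe was 6.67, 7.37 and 7.01 in hSRY-OFF hearts and 5.42, 6.42 and 6.33 in hSRY-ON hearts. The groups did not overlap. The lowest heart was hSRY-ON replicate 1, and the closest hearts of opposite groups were hSRY-OFF replicate 1 and hSRY-ON replicate 2. The mean was 7.01 ± 0.35 (SD, n = 3) in hSRY-OFF and 6.06 ± 0.55 (SD, n = 3) in hSRY-ON hearts, a 1.94-fold lower level. The log2 fold change of -0.95 (SE 0.29, 95% interval -1.64 to -0.27) had an adjusted p of 0.0468 (limma) and stood close to the threshold. Without background correction it was -0.38 (adjusted p = 0.0365). Leaving out any 1 of 5 of the 6 hearts ended the call. The log2 fold change was then -1.12 without hSRY-OFF replicate 1 (adjusted p = 0.0527), -0.77 without hSRY-OFF replicate 2 (adjusted p = 0.135), -0.97 without hSRY-OFF replicate 3 (adjusted p = 0.0896), -0.64 without hSRY-ON replicate 1 (adjusted p = 0.0912) and -1.09 without hSRY-ON replicate 3 (adjusted p = 0.0604).

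The single probe of Adrb3, a beta receptor best known from adipocytes, was detected in 1 heart, hSRY-ON replicate 1. It read 4.65, 4.77 and 5.16 in hSRY-OFF hearts and 5.44, 5.08 and 4.96 in hSRY-ON hearts, within the range of probes at background. No difference could be measured at this signal.

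Chrm2, the M2 muscarinic receptor through which the vagus nerve slows the heart, had a higher signal in hSRY-ON hearts. Its first probe read 7.63, 7.84 and 8.03 in hSRY-OFF hearts and 9.41, 8.57 and 8.47 in hSRY-ON hearts. The groups did not overlap, and hSRY-ON replicate 1 was the highest of the 6. The means were 7.83 ± 0.20 and 8.82 ± 0.51 (SD, n = 3 each), a 1.97-fold higher level in hSRY-ON hearts, and the log2 fold change was 0.98 (SE 0.25, 95% interval 0.39 to 1.57, adjusted p = 0.0257, limma). Without hSRY-OFF replicate 1 it was 0.88 (adjusted p = 0.0866) and without hSRY-OFF replicate 2 it was 0.99 (adjusted p = 0.0688). Such a separation upwards was seen in 23.6% of all probes tested.

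The second Chrm2 probe read 6.21, 7.01 and 7.43 in hSRY-OFF hearts and 7.95, 7.42 and 7.68 in hSRY-ON hearts. Here the highest hSRY-OFF heart, replicate 3, reached the lowest hSRY-ON heart. The log2 fold change was 0.80 (SE 0.30, 95% interval 0.10 to 1.5), in the same direction as the first probe, with an adjusted p of 0.0879. It was 0.46 without hSRY-OFF replicate 1 (adjusted p = 0.192) and 1.08 without hSRY-OFF replicate 3 (adjusted p = 0.0302).

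**Figure D2:**
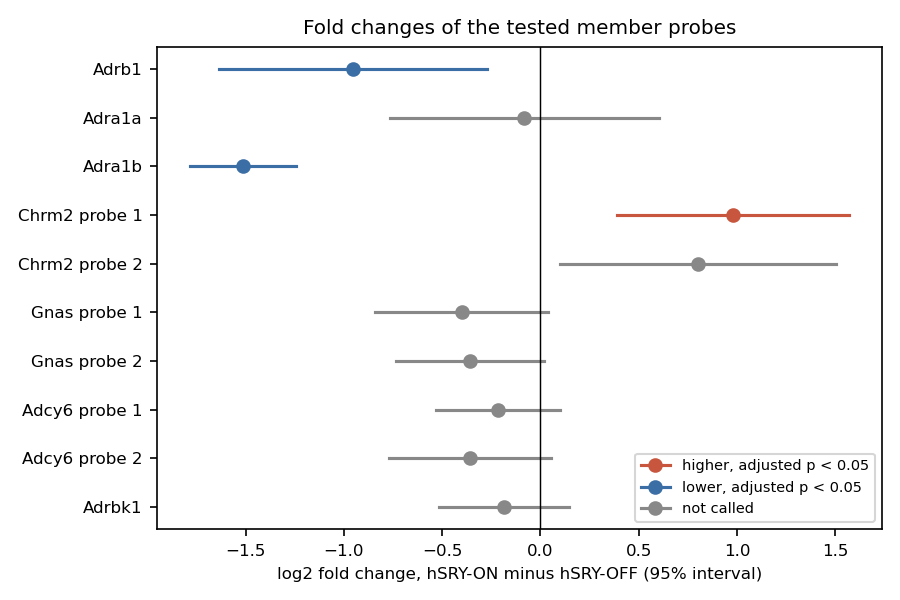
Log2 fold change, hSRY-ON minus hSRY-OFF (horizontal axis), of the 10 tested member probes, with lines for the 95% interval. Red marks a higher and blue a lower level at an adjusted p under 0.05, and grey marks probes that did not pass. The values run from -1.51 for Adra1b to 0.98 for Chrm2 probe 1, and the 7 probes in grey include both probes of Gnas and of Adcy6.

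Gnas encodes the alpha subunit of the stimulatory G protein, within an imprinted locus that has several start sites. Its first probe read 11.99, 11.85 and 11.33 in hSRY-OFF hearts and 11.18, 11.45 and 11.34 in hSRY-ON hearts. The log2 fold change was -0.40 with a 95% interval from -0.84 to 0.04 (adjusted p = 0.154, limma), and hSRY-OFF replicate 3 lay among the hSRY-ON hearts. Without that heart the value was -0.60 (adjusted p = 0.0231), and without hSRY-OFF replicate 1 it was -0.27 (adjusted p = 0.397). The second probe read 10.88, 10.60 and 10.35 in hSRY-OFF hearts and 10.35, 10.10 and 10.30 in hSRY-ON hearts, a log2 fold change of -0.36 (SE 0.16, adjusted p = 0.138), and here hSRY-OFF replicate 3 and hSRY-ON replicate 1 were nearly level. Without hSRY-OFF replicate 1 it was -0.23 (adjusted p = 0.38). Of the remaining 3 Gnas probes, 1 was detected in 2 hSRY-OFF hearts and no hSRY-ON heart, and the other two were detected on no array.

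Of the cyclases, Adcy5 and Adcy6 are the main isoforms of cardiomyocytes. The probe of Adcy5 was detected on no array, with log2 intensities between 4.67 and 4.88, so its level could not be measured. Adcy6 was well above background by its brightest probe, which read 11.19, 11.12 and 11.29 in hSRY-OFF hearts and 10.89, 11.20 and 10.87 in hSRY-ON hearts. The groups overlapped through hSRY-ON replicate 2, and the log2 fold change was -0.22 with a 95% interval from -0.53 to 0.10 (adjusted p = 0.277, limma). A dimmer Adcy6 probe, detected in 2 hSRY-OFF hearts and 1 hSRY-ON heart, gave -0.36 (SE 0.18, adjusted p = 0.172), and the third was detected on no array.

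Adrbk1, now named Grk2, phosphorylates active beta receptors and so uncouples them from the G protein. Its probe read 10.71, 10.82 and 10.61 in hSRY-OFF hearts and 10.66, 10.63 and 10.30 in hSRY-ON hearts. The groups overlapped, and the log2 fold change of -0.18 (95% interval -0.51 to 0.15) had an adjusted p of 0.37 (limma).

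Genes whose log2 profile over the 6 hearts lay closest to that of the 2 most significant members were found among 9659 other tested genes, after each probe had been centred on its own mean. For Adra1b they were Mycbpap, with a root-mean-square difference of 0.082 on the log2 scale, Acadvl, the very long chain acyl-CoA dehydrogenase of mitochondria, with 0.090, and Crat, carnitine acetyltransferase, with 0.126. Their log2 fold changes were -1.51, -1.55 and -1.45. For Chrm2 they were Dok2 with 0.061, Dtnb, a dystrobrevin, with 0.119, and Lox, the lysyl oxidase that cross-links collagen, with 0.119, and their log2 fold changes were 0.98, 1.16 and 1.11. This is a description of likeness over 6 hearts in 2 groups, in which any gene with a like difference between the groups comes close.

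The rest of the pathway was described from 10 lists by role. Of 154 listed genes, 141 had a probe and 95 were tested, each by its brightest probe. Of these 95 genes, 16 rose and 27 fell in hSRY-ON hearts, which is 45.3%, against 28.8% of all tested genes, and the median of their log2 fold changes was -0.07. The lists were chosen with earlier results of these data known, so this difference in share is a description only. The counts ran from 0 of 2 tested genes among the other receptors to 11 of 14 among the cardiac effectors and 5 of 5 among the genes of transmitter supply.

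**Figure D3:**
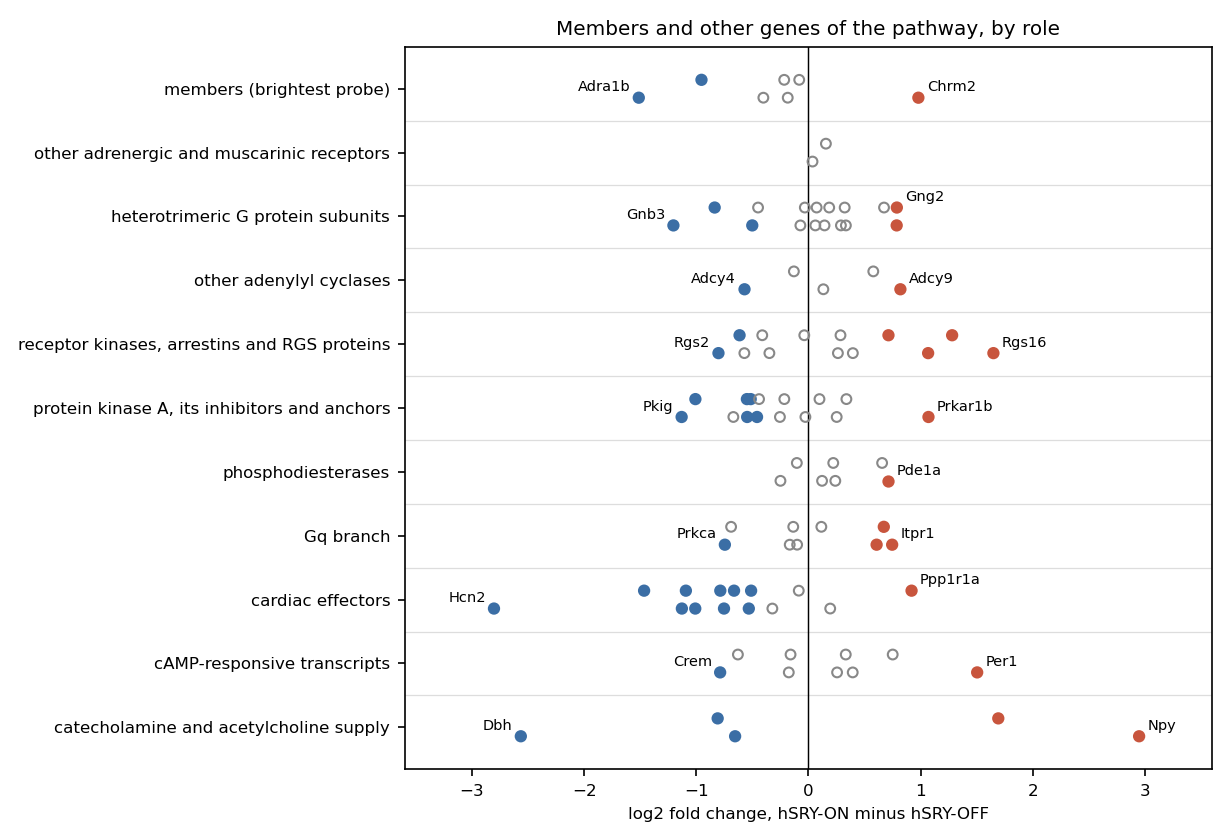
Log2 fold change, hSRY-ON minus hSRY-OFF (horizontal axis), of the members and of the tested genes of 10 pathway lists (rows), each gene by its brightest probe. Red points are higher and blue points lower at an adjusted p under 0.05, open points did not pass, and the differentially expressed gene with the largest increase and decrease is named in most rows. In the row of cardiac effectors, 10 of 14 points are blue and 1 is red.

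Of 9 other receptor genes of the noradrenaline, acetylcholine and adenosine families, 2 were tested and neither passed. Adora1, the adenosine receptor that slows the heart through Gi, had a log2 fold change of 0.04 (SE 0.29) and Adra2a, a presynaptic alpha-2 receptor, 0.16 (SE 0.31). The muscarinic genes Chrm1, Chrm3, Chrm4 and Chrm5 were detected on no array, so that Chrm2 was the only muscarinic receptor gene with a signal above background in these hearts.

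Among 16 tested G protein subunit genes, 2 rose and 3 fell, with only 1 that rose without any 1 of hSRY-OFF replicates 1 and 2 and hSRY-ON replicates 1 and 3. Gnb3, a beta subunit, showed the largest decrease, with a log2 fold change of -1.20 (SE 0.21, adjusted p = 0.00529, limma), and was detected in 3 hSRY-OFF hearts and 1 hSRY-ON heart. Gng2, a gamma subunit, showed the largest increase, with 0.79 (SE 0.15, adjusted p = 0.0078), and its dimmer probe gave 1.33 (adjusted p = 0.00487). Gnai2 and Gnaq, alpha subunit genes of the Gi and Gq branches that lie downstream of Chrm2 and Adra1b, did not pass. Their log2 fold changes were 0.07 (SE 0.16) for Gnai2 and 0.06 (SE 0.24) for Gnaq. The related Gi gene Gnai3 was detected on no array, and Gnai1 had no probe. These genes are named here after their values were seen.

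Of 5 other tested adenylyl cyclases, 1 rose and 1 fell. Adcy9 rose with a log2 fold change of 0.82 (SE 0.25, adjusted p = 0.0474, limma) and Adcy4 fell with -0.57 (SE 0.15, adjusted p = 0.0273). Neither call was stable when hearts were left out. For Adcy9 the adjusted p was 0.13 without hSRY-OFF replicate 1, 0.103 without hSRY-OFF replicate 3, 0.135 without hSRY-ON replicate 2 and 0.108 without hSRY-ON replicate 3. For Adcy4 it was 0.0602, 0.0613 and 0.062 without hSRY-OFF replicates 1, 2 and 3, 0.0918 without hSRY-ON replicate 1 and 0.0708 without hSRY-ON replicate 3.

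The proteins that end receptor signals had 4 genes that rose and 2 that fell of 13 tested, with 1 that fell without hSRY-OFF replicate 2 or hSRY-ON replicate 2 or 3. Rgs16 rose most, with log2 intensities of 7.01, 7.22 and 7.28 in hSRY-OFF hearts and 8.24, 8.92 and 9.31 in hSRY-ON hearts, a log2 fold change of 1.65 (SE 0.26, adjusted p = 0.00336, limma). Rgs6, an RGS protein known to shorten M2 receptor signals in pacemaker cells, read 7.54, 7.69 and 7.86 in hSRY-OFF hearts and 9.02, 8.82 and 9.09 in hSRY-ON hearts, and rose by 1.28 (SE 0.14, adjusted p = 0.000801). Every hSRY-ON heart lay above every hSRY-OFF heart for both genes. The receptor kinase genes Grk5, at 1.07 (SE 0.27, adjusted p = 0.0252), and Adrbk2, at 0.71 (SE 0.17, adjusted p = 0.02), also rose without overlap. Adrbk2 was detected in 1 hSRY-OFF heart and 3 hSRY-ON hearts. The call of Grk5 was lost without hSRY-OFF replicate 1 or hSRY-ON replicate 1 or 3. That of Adrbk2 was lost without hSRY-OFF replicate 2 or hSRY-ON replicate 2. Rgs2, which acts on Gq, was detected in all hSRY-OFF hearts and no hSRY-ON heart, so that it was at least 1.37-fold lower (adjusted p = 0.0105). Rgs4, the other gene that fell, was detected in all 6 hearts and was 1.53-fold lower (adjusted p = 0.0312), so that the order of both decreases is not known. The call of Rgs4 was lost without hSRY-OFF replicate 1 (adjusted p = 0.0963) or 2 (adjusted p = 0.0879) and without hSRY-ON replicate 2 (adjusted p = 0.0657) or 3 (adjusted p = 0.063). Rgs4, Rgs6, Grk5 and Adrbk2 were named after their values were seen.

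Of 15 tested genes of protein kinase A, its inhibitors, its anchors and the cAMP-activated exchange factors, 1 rose and 6 fell, and 3 fell without hSRY-OFF replicate 1. Pkig, an inhibitor of the kinase, fell most, by 1.13 on the log2 scale (SE 0.12, adjusted p = 0.000832, limma), and its other two probes gave -1.41 and -1.08. Prkaca, the main catalytic subunit in heart, was 12.90 ± 0.08 in hSRY-OFF and 12.35 ± 0.08 in hSRY-ON hearts (SD, n = 3 each), a log2 fold change of -0.55 (SE 0.12, adjusted p = 0.0116). Without hSRY-OFF replicate 1 the adjusted p of Prkaca was 0.0535. Prkar1b, a regulatory subunit, rose by 1.07 (SE 0.23, adjusted p = 0.0116). The members that fell thus included both a catalytic subunit and an inhibitor of the same kinase. Prkaca was named after its values were seen.

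Phosphodiesterases, which break down cAMP and cGMP, had 1 gene that rose of 7 tested and none that fell. Another 9 of the 16 listed genes were not tested. Among them, Pde3a, Pde3b and Pde4b were detected on no array and were named after this was seen. Pde1a, a calcium- and calmodulin-dependent enzyme, was 8.03 ± 0.09 in hSRY-OFF hearts and 8.74 in the mean of hSRY-ON hearts, a log2 fold change of 0.71 (SE 0.11, adjusted p = 0.00347, limma). In the Gq branch, 3 of 9 tested genes rose and 1 fell, with 1 that rose without any 1 of hSRY-OFF replicates 1 and 2 and hSRY-ON replicates 1 and 2. Itpr1, an inositol trisphosphate receptor of internal calcium stores, rose by 0.75 (SE 0.15, adjusted p = 0.0107), and Prkca, the protein kinase C isoform best known for lowering cardiac contractility, fell by 0.75 on the log2 scale (SE 0.15, adjusted p = 0.0102).

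Cardiac effectors are mainly the channels, calcium handling and sarcomere proteins that protein kinase A, cAMP or the G protein subunits act on. The list also held the calcium- and calmodulin-dependent kinase genes Camk2d and Camk2g, which lie outside this description. Camk2d fell (-0.66, SE 0.12, adjusted p = 0.00721, limma) and Camk2g did not pass, and for both every hSRY-ON heart was lower. Of 14 tested genes, 10 fell and 1 rose, their median was -0.71 on the log2 scale, and the groups did not overlap for 12 of them. Over all tested genes, 46.8% did not overlap, 22% with every hSRY-ON heart lower and 24.9% with every hSRY-ON heart higher, whereas 11 of the 14 effectors had every hSRY-ON heart lower. Hcn2, a pacemaker channel opened by cAMP, fell most. It read 8.43, 8.63 and 7.85 in hSRY-OFF hearts and 5.91, 5.43 and 5.15 in hSRY-ON hearts, where it was detected in 2 of 3, and its log2 fold change was -2.80 (SE 0.26, adjusted p = 0.00047, limma). Pln, phospholamban, the brake on the calcium pump that protein kinase A relieves, read 10.33, 10.81 and 9.71 in hSRY-OFF hearts and 8.43, 9.03 and 8.99 in hSRY-ON hearts, a log2 fold change of -1.47 (SE 0.29, adjusted p = 0.00908). Ryr2, the calcium release channel, fell by 1.09 on the log2 scale (SE 0.24, adjusted p = 0.0125). Its probe was near background in hSRY-ON hearts, where it read 5.12, 6.03 and 5.78 and was detected in 2 of 3. Ppp1r1a, an inhibitor of protein phosphatase 1 that protein kinase A switches on, was the gene that rose, by 0.92 (SE 0.15, adjusted p = 0.00446).

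Kcnj3, a subunit of the potassium channel that the M2 receptor opens, read 6.53, 6.22 and 6.88 in hSRY-OFF hearts and 5.74, 5.87 and 5.76 in hSRY-ON hearts. It fell by 0.75 on the log2 scale (SE 0.18, adjusted p = 0.0178, limma), opposite in sign to Chrm2, and its adjusted p was 0.0575 without hSRY-OFF replicate 1 and 0.0562 without hSRY-ON replicate 1. Kcnj5, the partner subunit of that channel, was detected on no array. Pln, Ryr2, Camk2d, Camk2g, Kcnj3 and Kcnj5 were named after their values were seen. Over all alternatives the number of effectors that fell was between 7 and 10, and 1 rose in each. Of the cardiomyocyte markers 1 of 8 was lower, Myh6 at -0.51 (adjusted p = 0.0185), a median of -0.11 on the log2 scale and a summed intensity that lay between 258975 and 270344 in hSRY-OFF and between 246194 and 259864 in hSRY-ON hearts. Tnnc1, Myl2, Myl3 and Nppa, 4 of the 8, lay near the highest normalized values of the arrays, where a change may not be measurable. The call of Myh6 was lost without hSRY-OFF replicate 1 (adjusted p = 0.064), hSRY-OFF replicate 2 (adjusted p = 0.0525), hSRY-ON replicate 1 (adjusted p = 0.0523) and hSRY-ON replicate 2 (adjusted p = 0.0649).

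The list of cAMP-responsive genes of the CREB family showed no common direction, with 1 gene higher and 1 lower of 9 tested. Besides transcripts that follow cAMP, the 9 included the factor Creb1 and its coactivators Crtc1 and Crtc3, none of which passed. Nr4a1 and Nr4a3 were detected on no array, and Sik1 had no probe. These genes were named after this was seen. Per1, a clock gene with a cAMP response element, was 8.58 ± 0.48 in hSRY-OFF and 10.08 ± 0.36 in hSRY-ON hearts (SD, n = 3 each), a log2 fold change of 1.51 (SE 0.27, adjusted p = 0.00636, limma). Crem, a cAMP-responsive modulator, fell by 0.79 on the log2 scale (SE 0.14, adjusted p = 0.00624). The immediate early gene Fos, named after its values were seen, had a log2 fold change of 0.75 with a wide error (SE 0.66, adjusted p = 0.432).

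Of 20 genes that make, store, take up or break down the transmitters or support their nerves, 5 were tested, and 2 rose and 3 fell. Dbh, dopamine beta-hydroxylase, which makes noradrenaline from dopamine, read 7.50, 7.61 and 7.67 in hSRY-OFF hearts and 4.95, 4.89 and 5.25 in hSRY-ON hearts. It was detected in every hSRY-OFF heart and in no hSRY-ON heart, and was at least 4.81-fold lower by the background-corrected intensities (adjusted p = 5.38e-05, limma). Without background correction its log2 fold change was -0.99, smaller than that bound. Npy, neuropeptide Y, which sympathetic neurons release with noradrenaline, moved the other way, with 6.58, 7.42 and 6.44 in hSRY-OFF hearts and 9.99, 9.81 and 9.48 in hSRY-ON hearts. Its log2 fold change was 2.95 (SE 0.27, adjusted p = 0.000468), and all hSRY-ON hearts lay above all hSRY-OFF hearts. Ddc, which makes the dopamine that Dbh uses, also rose, with a log2 fold change of 1.69 (SE 0.17, adjusted p = 0.0007, limma). The other genes that fell were Ngfr, at -0.81 (adjusted p = 0.00367), and Maob, at -0.65 (adjusted p = 0.0085). Ddc, Ngfr and Maob were named after their values were seen. The tyrosine hydroxylase gene Th and the choline acetyltransferase gene Chat, which mark noradrenergic and cholinergic neurons, were detected on no array and were named after this was seen.

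Markers of nerve cells moved with Dbh in part. Of 8 neuron and Schwann cell markers with a probe, 3 were tested and 1 was lower. This was Stmn2, with -0.52 (SE 0.15, adjusted p = 0.0334, limma), while Phox2a had -0.57 (adjusted p = 0.0532). The call of Stmn2 was lost without hSRY-OFF replicate 1 (adjusted p = 0.1), 2 (adjusted p = 0.0927) or 3 (adjusted p = 0.0508) and without hSRY-ON replicate 2 (adjusted p = 0.0959) or 3 (adjusted p = 0.0915). Prph and S100b were detected on no array. Summed over the 8 markers, the intensity lay between 490 and 588 in hSRY-OFF and between 383 and 496 in hSRY-ON hearts. The part of nerve content in the values of Dbh and Npy was not tested.

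Other cell types moved with the groups as well. Of 4 tested smooth muscle markers 3 were higher, Mylk at 3.33 (SE 0.16), Tagln at 1.81 (SE 0.34) and Acta2 at 0.53 (SE 0.12). Myh11 was at -0.42 (adjusted p = 0.114), Cnn1 was detected on no array, and the summed intensity of the 5 markers lay between 26022 and 31453 in hSRY-OFF and between 43998 and 49990 in hSRY-ON hearts. Of 6 tested macrophage markers 4 were higher, namely Cd163, detected in no hSRY-OFF heart and at least 1.36-fold higher, Lyz2 at 1.02 (SE 0.17), Cd68 at 0.99 (SE 0.16) and Mrc1 at 0.97 (SE 0.17). Lyzs at 0.31 (adjusted p = 0.284) and Emr1 at -0.21 (adjusted p = 0.563) did not pass. Lyzs is an older symbol of Lyz2, so 2 of the markers counted here are probes of 1 gene, and only 1 of these probes passed. Ptprc was detected on no array, and the sum over 7 markers was 2812 to 3783 against 6097 to 7126. Of 4 tested adipocyte markers 2 were higher, Adipoq at 1.48 (SE 0.39) and Ucp1 at 3.67 (SE 1.07), the latter with overlapping groups. Cfd at 1.26 (adjusted p = 0.0818) and Pnpla2 at -0.39 (adjusted p = 0.1) did not pass. Plin, Elovl3 and Retn were detected on no array, and the sum over 8 markers was 4776 to 5766 against 4197 to 6290. Pnpla2 was the brightest tested adipocyte marker in every heart, so this sum mainly follows that 1 gene. By the mean log2 intensity of the same 8 markers the groups did not overlap. That mean was 5.83 to 6.57 against 6.59 to 7.14, higher with hSRY-ON. Endothelial markers were split, with Emcn higher and Cdh5 and Tek lower of 6 tested and Kdr on no array. Their sum over 7 markers was 21229 to 22913 against 20460 to 22009. Their mean log2 intensity did not overlap, with 10.42 to 10.49 against 10.21 to 10.36, lower with hSRY-ON. Of 7 tested fibroblast markers, Tcf21 was higher. Pdgfra at 0.41, Col1a2 at 0.10, Col1a1 at 0.05, Dcn at -0.30, Lum at -0.43 and Col3a1 at -0.60 did not pass. For Dcn and Lum every hSRY-ON heart lay below every hSRY-OFF heart. The sum over 8 fibroblast markers was 31576 to 33854 against 28866 to 32200. The calls of Acta2, Adipoq, Ucp1, Emcn, Tek and Tcf21 were each lost without at least 1 single heart, and no adipocyte marker passed without any 1 of hSRY-OFF replicates 1 and 2 and hSRY-ON replicate 1. The part of these cell types in the values of Chrm2, Adra1b, Rgs16 and the other genes above was not tested.

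**Figure D4:**
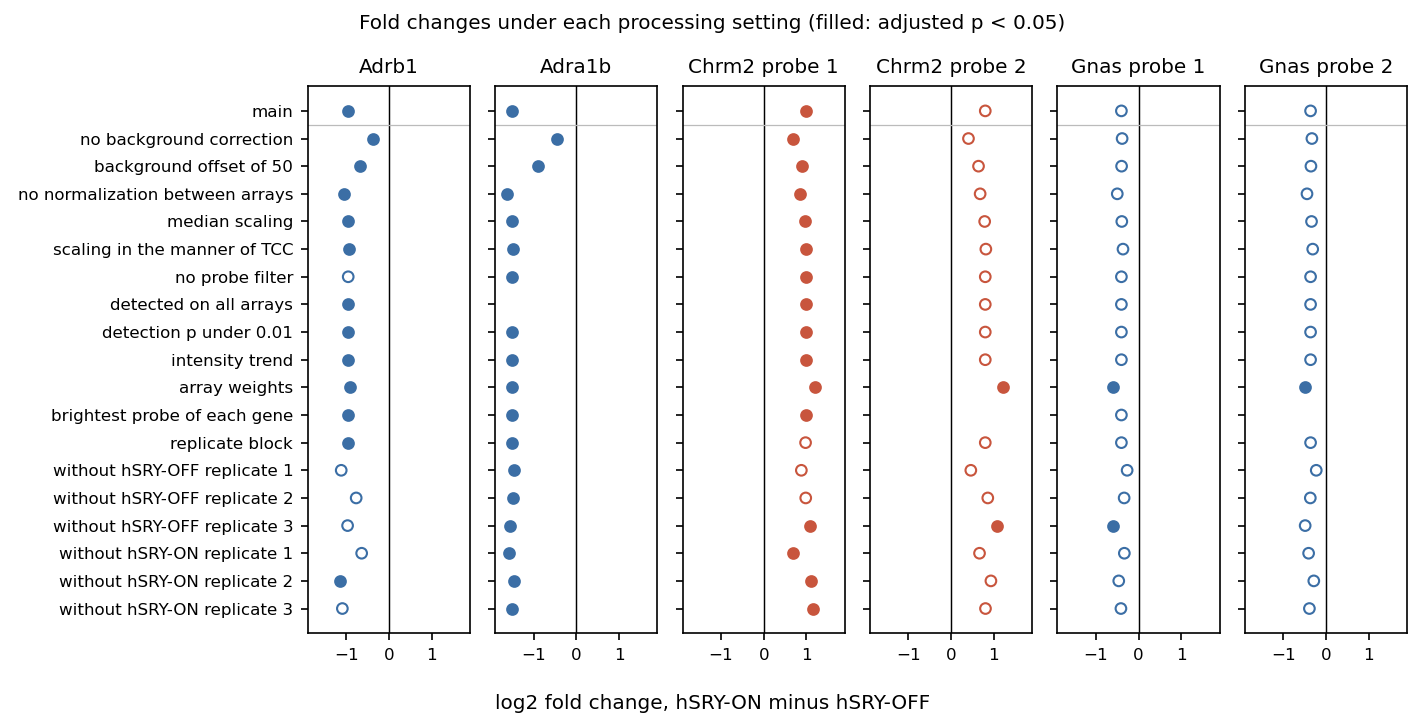
Log2 fold change, hSRY-ON minus hSRY-OFF (horizontal axis), of 6 member probes in the analysis as reported and under 18 alternatives (rows), with filled circles for an adjusted p under 0.05. A missing circle marks a setting in which the probe was not tested. Adra1b is filled in every setting that tested it, Adrb1 is open without 5 of the 6 hearts, and the Gnas probes are filled with array weights and, for probe 1, without hSRY-OFF replicate 3.

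Each array detected 47.2% to 51.3% of its probes, and hSRY-OFF replicate 3, which decided the call of Gnas probe 1 and Chrm2 probe 2, was the dimmest, its median intensity being 156 where the remaining arrays gave 167 to 201. Over the tested probes the log2 intensities correlated at 0.983 to 0.992 between hSRY-OFF hearts, 0.985 to 0.988 between hSRY-ON hearts and 0.940 to 0.960 between hearts of different groups. With 3 hearts in each group, an exact permutation test of a single probe cannot give a two-sided p below 0.1, so that the fit across all probes was used.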

How the data were processed

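Total RNA of 6 hearts had been hybridized by the authors to MouseRef-8 v2.0 BeadChips. The authors deposited, for each probe and array, a bead intensity without normalization and a detection p-value against control beads. The study names the R package TCC and the submitters' processing notes name limma, with no settings, and the summarising software is not given in the sources used here. Groups and replicate numbers came from the labels.

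In R 4.3.3 with limma 3.58.1, the neqc function estimated the background through the detection p-values, with an offset of 16, followed by quantile normalization and log2. Probes with a detection p-value under 0.05 on at least 3 of 6 arrays were tested with lmFit and eBayes on group alone (two-sided), and adjusted over all tested probes by Benjamini-Hochberg. A probe above background in no heart of a group has a bound only. Where a gene needed 1 value, its brightest probe was used. The steps were tested on simulated data. Python 3.11.15 with matplotlib 3.10.9 made the plots. For arrays, the number of hearts limits the precision.

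Members and lists were chosen with earlier results of these data known. Named were all members, the differentially expressed gene with the largest increase and decrease in each pathway list, and the 3 genes most like each of the 2 members with the smallest p. Marker genes and those said to be named later fall outside this rule. The alternatives were an offset of 50 or no background correction, median scaling, a TCC-like scaling or no normalization, all probes, probes detected on every array or at a p-value under 0.01, the brightest probe of each gene, an intensity trend, array weights, a replicate block, and leaving out each heart. No gene coordinates are given beyond the upstream windows, since no genome build is named for the probes.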

Additional observations from a re-analysis of the deposited data

How the results depend on the processing

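Of 172 member values under the alternatives, 156 kept their direction and their side of the threshold, 9 lost the call, 5 gained one and 2 reversed. The 2 reversals were Adra1a, at 0.14 without hSRY-OFF replicate 1 and 0.05 without hSRY-ON replicate 1, within a range of -0.40 to 0.14 when single hearts were left out. The number of differentially expressed member probes was 3 and rose to 6 with array weights (both Chrm2 and both Gnas probes, Adrb1 and Adra1b), and it ranged from 1 (without hSRY-OFF replicate 1 or 2) to 4 (without hSRY-OFF replicate 3) when single hearts were left out. Adrb1 also lost its call with no probe filter (adjusted p = 0.0847). Without normalization between arrays the median log2 fold change of the tested probes was -0.12. Then 1897 probes against 3567 and 24 pathway genes against 43 were differentially expressed, and 38.5% against 50.1% of the probes called were higher in hSRY-ON hearts. In that setting the fit gave every member probe the same SE of 0.30, so its p-values do not measure the spread of each probe between hearts. Of the pathway genes and markers named, Gng2, Pde1a, Itpr1, Prkaca, Rgs4, Adrbk2, Adcy4, Adcy9, Myh6, Stmn2, Acta2, Emcn, Tek and Tcf21 lost their calls there (adjusted p between 0.0932 for Rgs4 and 0.481 for Acta2). Maob (adjusted p = 0.0633) and Camk2d (adjusted p = 0.0719) lost theirs there too. Rgs2 (-0.23, adjusted p = 0.0572), Adcy9 (adjusted p = 0.0521) and Adrbk2 lost theirs without background correction. That setting also gave smaller log2 fold changes of -1.32 for Hcn2, 2.0 for Npy, -0.38 for Gnb3 and Ryr2, and 0.44 for Prkar1b and Cd163. The causes were not tested. Without single hearts, 2239 (hSRY-OFF replicate 1 left out) to 3714 probes and 31 to 43 pathway genes passed.

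With the replicate number as a block, 2 member probes were differentially expressed (Adrb1 and Adra1b), and Chrm2 probe 1 was not (0.98, adjusted p = 0.0604), of 2842 probes in all. The deviations of hearts with the same number correlated at -0.02, 0.04 and -0.07, so the numbers were not taken as pairs.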
